A study of Mus musculus with 2 samples.

Results

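Myh8 and Myh3 are the genes of the perinatal and the embryonic myosin heavy chain, the motor proteins that fill the thick filaments of a muscle fibre before the adult chains take over. They were 2 of the 35163 genes in a table of single myofibers from the foot muscle flexor digitorum brevis (FDB). The pair was chosen by their measured levels in these cells: both genes were seen across the adult fibres, and Myh8 was already known to be high in Myh1-rich cells and Myh3 in Myh2-rich cells. Their levels across fibre classes are therefore given as a description, with no test.

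By the series description the FDB came from 1 C57BL/6J mouse over 3 months of age, which was untreated per the labels, so the 763 cells are not replicates of a condition and no p-value was computed. Whole myofibers (670) were sorted by size, and fragments (93) came from muscle cut to mimic a biopsy. Each was sequenced by mcSCRB-seq, in which a unique molecular identifier (UMI) marks every captured RNA molecule so that copies are counted once. The cells carry 8 library indexes and were run on 2 sequencing lanes (381 and 382 cells), and all 763 barcodes were distinct with 0 shared between lanes.

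The 171 cells with more than 5000 genes and less than 20% mitochondrial counts were kept, among them 3 fragments. They held 51923865 counts, and single cells held 28827 to 1542996 (median 239581). A cell was classed by the largest of Myh1, Myh2, Myh4, Myh7 and Myh8, which gave 117 fast 2X cells (Myh1), 51 fast 2A cells (Myh2), 2 slow cells (Myh7) and 1 fast 2B cell (Myh4). In 0 cells was Myh8 the largest. Levels are counts scaled to a total of 1000000 in a cell or group (CPM), with exact 95% limits that cover counting error only.

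Each myosin heavy chain gene encodes a motor with its own speed of contraction. Adult mouse muscle uses the slow chain of Myh7 and the fast chains of Myh2, Myh1 and Myh4, while Myh3 and Myh8 are used in the embryo, around birth and again when fibres regenerate. The fast and developmental genes stand in a row on 1 chromosome in the order Myh3, Myh2, Myh1, Myh4, Myh8 and Myh13, and only 1 or a few of them are strongly transcribed in a given adult fibre.

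In GRCm38 the row lies on the plus strand of chromosome 11. Myh3 (ENSMUSG00000020908.14) spans 67078300 to 67102291 and Myh8 (ENSMUSG00000055775.16) spans 67277124 to 67308634. Between them lie Myh2 (67171027 to 67197517), Myh1 (67200052 to 67224575) and Myh4 (67238029 to 67260446). The annotation has no other gene overlapping Myh8, and the only one overlapping Myh3 is the microRNA gene Mir6923. The upstream sequences are shown to place Myh8 and Myh3 beside the adult fast genes. Shared runs were sought only among Myh8, Myh1, Myh4 and Myh2. Myh3 was not part of that search, so its lack of the runs is no result about grouping. The longest run of bases that Myh8, Myh1 and Myh4 share upstream of their starts has 15 bases, and a run of 14 bases is shared by Myh8, Myh1, Myh4 and Myh2. The stretches below are from RefSeq (GRCm38.p6), 5′ to 3′, with the bases that match either run in capitals. The Myh3 stretch is an exception and was left in lower case throughout, although some of its bases match.
Myh8, chr11:67277012-67277091, plus strand: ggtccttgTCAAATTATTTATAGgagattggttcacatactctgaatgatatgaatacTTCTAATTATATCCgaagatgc
Myh1, chr11:67199878-67199963, plus strand: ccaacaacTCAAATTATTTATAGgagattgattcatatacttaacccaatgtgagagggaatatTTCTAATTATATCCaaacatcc
Myh4, chr11:67237617-67237675, plus strand: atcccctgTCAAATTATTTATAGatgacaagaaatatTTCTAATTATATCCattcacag
Myh2, chr11:67170846-67170923, plus strand: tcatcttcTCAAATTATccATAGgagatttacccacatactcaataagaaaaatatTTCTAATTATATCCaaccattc
Myh3, chr11:67078089-67078163, plus strand: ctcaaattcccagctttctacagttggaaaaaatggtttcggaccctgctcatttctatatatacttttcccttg

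In Myh8 the runs began 104 and 54 bases before the RefSeq start of transcription, compared with 216 and 160 bases in Myh1 and 187 and 158 bases in Myh4. These distances are from the RefSeq starts, which for Myh1 lie 50 bases downstream and for Myh4 217 bases upstream of the gene starts given above, and which are the same for Myh8, Myh2 and Myh3. Myh2 matched 13 of the 15 bases of the first run, 173 bases before its start. In Myh8 and Myh1 the first run goes on to 22 identical bases. The best placement upstream of Myh3 matched 8 of 15 and 9 of 14 bases, and these matching bases were not put in capitals. Of 32851 RefSeq windows that reach from 250 bases before to 50 bases after a start, searched on both strands, 3 held the 15-base run and 4 held the 14-base run, and these were the genes in which the runs had been found. The shared letters are a description of the windows and not evidence of a binding site.

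Some reads could in principle belong to more than 1 of these similar genes. Of the 66-base stretches in the coding transcripts of Myh8, 12.2% also occur in another Myh gene (5.06% in Myh1 and 6.50% in Myh2). For the last 1000 bases of the transcripts, where reads of this 3′ method fall, the share was 4.17% for Myh8, and 0 of 1870 stretches were shared with Myh1. For Myh3 it was 10.9%, and all 102 of these stretches were found in Myh13, with 29 of them also in Myh1 and 0 in Myh2.

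Across the 171 cells Myh8 was the third of 10 sarcomeric myosin heavy chain genes by level and Myh3 was the seventh. Myh8 had 34613 counts, or 667 CPM (95% limits 660 to 674), and Myh3 had 1643 counts, or 31.6 CPM (limits 30.1 to 33.2). Per 1000 bases of the longest coding transcript, the level was 108 CPM for Myh8 and 5.25 CPM for Myh3, compared with 1584 CPM for Myh1, 755 CPM for Myh2, 47.8 CPM for Myh7 and 44.3 CPM for Myh4. Myh6, the atrial chain, followed Myh4 at 8.50 CPM per 1000 bases. Myh13, the extraocular chain, was at 5.17 CPM per 1000 bases and did not differ from Myh3 beyond counting error, but 647 of its 1627 counts came from the fast 2B cell. In that cell Myh4 was at 2918 CPM, Myh13 at 2517 CPM, Myh1 at 1362 CPM and Myh7b at 856 CPM. Its class name therefore gives only the largest Myh gene. Without that cell Myh13 was at 19.0 CPM and Myh3 at 31.5 CPM. In the pool of sarcomeric Myh counts, 4.28% were from Myh8 and 0.203% from Myh3.

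Myh8 was strong in fast 2X cells and weak in fast 2A cells. Per cell, the fast 2X class had a lowest value of 0, a median of 843 CPM (quartiles 599 and 1028) and a highest value of 1745 CPM. The fast 2A class had a lowest value of 0, a median of 138 CPM (quartiles 64.4 and 273) and a highest value of 478 CPM. The classes overlapped at the low end of fast 2X: 25 of 117 fast 2X cells lay below the highest fast 2A cell, and 0 of 51 fast 2A cells lay above the fast 2X median. Summed over cells, Myh8 was at 833 CPM in fast 2X (limits 824 to 842) and 158 CPM in fast 2A (limits 151 to 165), a log2 ratio of fast 2A over fast 2X of −2.40 (limits −2.47 to −2.33), or 5.28-fold. The fast 2B cell had 66 Myh8 counts (257 CPM), and the slow cells had 2 and 11 counts (19.9 and 23.0 CPM).

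**Figure D1:**
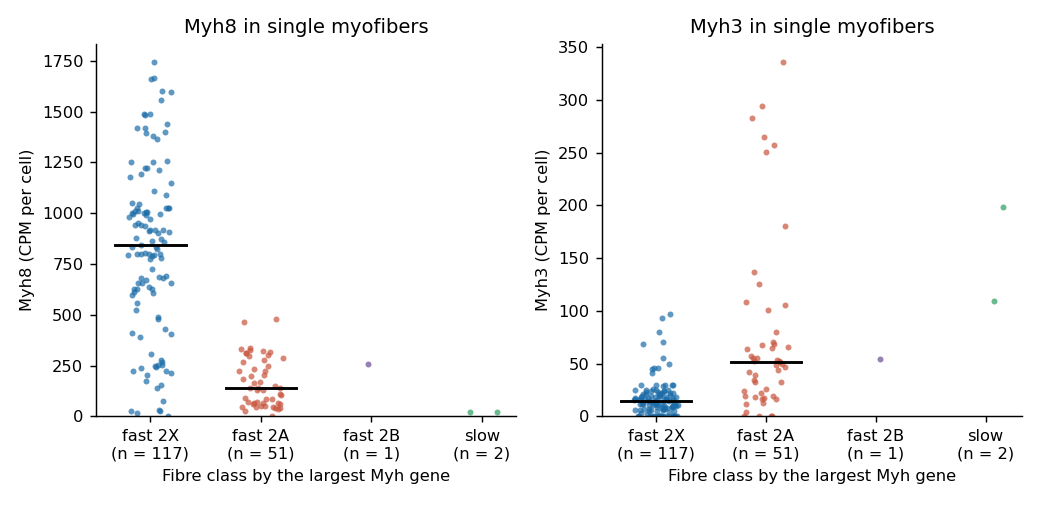
Myh8 (left) and Myh3 (right) in CPM for each of the 171 kept cells, by fibre class; each point is 1 cell, spread sideways for visibility, and black lines are class medians. Myh8 had a median of 843 CPM in fast 2X and 138 CPM in fast 2A, and Myh3 had 14.6 and 51.8 CPM, with 12 fast 2A cells above every fast 2X cell.

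Within the cells Myh8 went with Myh1, the fast 2X chain. The Spearman correlation of their CPM was 0.87 over the 171 cells, 0.72 within fast 2X and 0.79 within fast 2A. With Myh2, the fast 2A chain, it was −0.34 over all cells, but 0.06 within fast 2X and 0.08 within fast 2A. With total counts per cell it was 0.14. These are correlations across cells of 1 mouse that share libraries and a common denominator, and Myh1 and Myh2 also set the classes.

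In absolute terms Myh8 ran at a small and variable fraction of Myh1. The summed counts gave 7.06 Myh8 counts per 100 Myh1 counts in fast 2X cells (limits 6.98 to 7.14) and 5.16 in fast 2A cells (limits 4.93 to 5.41). Myh8 thus differed between the classes by more than Myh1 itself, whose log2 ratio of fast 2A over fast 2X was −1.95 (limits −1.96 to −1.93). Single fast 2X cells ranged from 0 to 14.7 Myh8 counts per 100 Myh1 counts, with quartiles of 5.66 and 9.13. The variance of this fraction between cells was 25.7 times the binomial counting variance in fast 2X and 6.79 times in fast 2A. The fast 2B cell had the highest value of the kept cells, 18.9 (limits 14.3 to 24.6), and the slow cells together had 1.67 (limits 0.886 to 2.87). Myh8 was higher than Myh4, the fast 2B chain, in 105 of 117 fast 2X cells and in 6 of 51 fast 2A cells, and it exceeded Myh2 in 0 cells.

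The fraction of Myh8 to Myh1 was lower in cells with a higher mitochondrial share of counts. Among cells with more than 5000 genes and at least 100 counts of the 5 Myh genes, fast 2X cells with under 5% mitochondrial counts (57 cells) had 7.59 Myh8 counts per 100 Myh1 counts. The value was 6.34 between 5% and 10% (32 cells) and 5.69 between 10% and 20% (26 cells). Beyond the filter it was 2.49 between 20% and 40% (31 cells, limits 2.16 to 2.86) and 1.75 at 40% or more (51 cells, limits 1.49 to 2.04). These values are from summed counts. The median of the single cells was 8.58, 7.51, 3.52, 2.27 and 1.52 over the same steps, so its largest fall lay inside the filter. Myh1 itself was at 11167 CPM between 10% and 20% and at 4158 CPM between 20% and 40%, while Myh8 was at 636 and 104 CPM.

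In fast 2X cells the step of the summed fraction at the filter was present on both lanes. On lane 1 the summed fraction was 5.36 between 10% and 20% and 2.46 between 20% and 40%, and on lane 2 it was 6.34 and 2.54. From 5% to 10% through 20% to 40%, the cell medians were 7.42, 3.18 and 2.13 on lane 1. On lane 2 they were 8.13, 5.66 and 2.63. Below the filter the lanes differed in the summed fraction: on lane 2 the lowest steps had 7.61 and 7.97, while on lane 1 they had 7.55 and 5.79. In fast 2A cells the values were 6.04, 4.89, 4.77, 3.85 and 0.889 over the same steps, with only 11 and 3 cells in the last 2. The fast 2A cells of lane 2 went the other way across the filter, at 2.90 between 10% and 20% (3 cells, limits 1.90 to 4.25) and 7.35 between 20% and 40% (3 cells, limits 5.14 to 10.2). Over all 592 cells left out, 942 Myh8 and 41920 Myh1 counts gave 2.25 (limits 2.10 to 2.40), and the 3 kept fragments together had 1.99 (limits 1.36 to 2.82). Over all classes together, Myh3 per 100 Myh2 counts was 0.708 in the cells left out (limits 0.605 to 0.824) and 0.689 in the kept cells (limits 0.656 to 0.724). Within fast 2X it was 0.475, 0.424, 0.481 and 0.465 over the first steps of mitochondrial share. At 40% or more it was 0.839 (38 Myh3 counts, limits 0.593 to 1.15). The part of fibre damage, depth or fibre kind in these fractions was not tested.

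**Figure D2:**
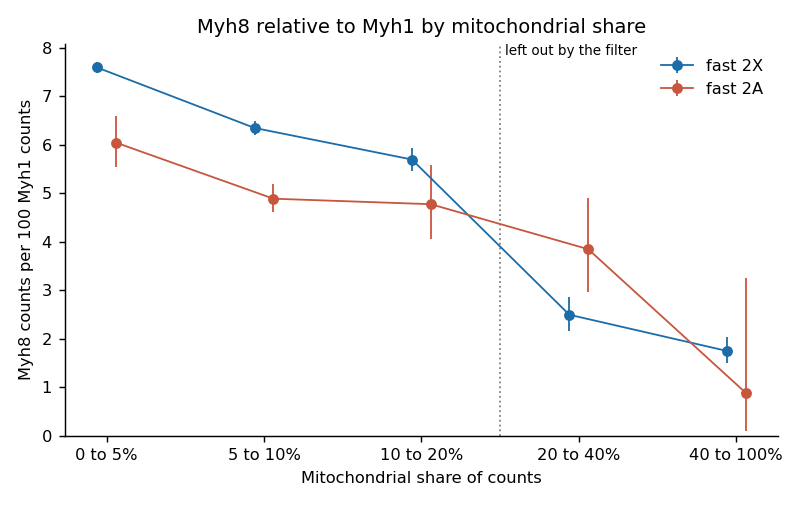
Myh8 counts per 100 Myh1 counts (summed over cells, bars are exact 95% counting limits) against the mitochondrial share of counts, for fast 2X and fast 2A cells with more than 5000 genes and at least 100 Myh counts. In fast 2X cells the summed value was 5.69 just inside the filter and 2.49 just outside it (dotted line), with cell medians of 3.52 and 2.27. The last 2 fast 2A points rest on 11 and 3 cells.

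Myh3 had the opposite order, low in fast 2X and higher in fast 2A and slow cells. Per cell, fast 2X ran from 0 through a median of 14.6 CPM (quartiles 6.53 and 22.0) to a highest value of 97.0 CPM. Fast 2A ran from 0 through a median of 51.8 CPM (quartiles 20.8 and 75.4) to a highest value of 336 CPM. The ranges overlapped in most cells, with 44 of 51 fast 2A cells above the fast 2X median and 12 above every fast 2X cell. Summed Myh3 was 77.0 CPM in fast 2A (917 counts, limits 72.1 to 82.2) and 15.5 CPM in fast 2X (606 counts, limits 14.3 to 16.7), a log2 ratio of 2.32 (limits 2.17 to 2.47), or 4.98-fold. The slow cells had 11 and 95 counts (109 and 198 CPM), and the fast 2B cell had 14 (54.5 CPM).

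Myh3 was sparse, so its detection followed depth. At least 1 count was present in 148 of 171 cells (86.5%, limits 80.5 to 91.3), and 19 of the 23 cells without one were fast 2X. After each cell was thinned to 28827 counts, Myh3 was detected in a median of 46.8% of cells over 10 draws, 36.8% of fast 2X and 67.6% of fast 2A. Myh8 was detected in 169 of 171 cells, and in 95.0% after thinning. No cell type that should lack these genes was part of the table, so a share from free RNA cannot be told apart here.

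The high values of Myh3 lay in a small group of fibres with slow-type contractile genes. Myh3 reached at least 100 CPM in 14 cells, of which 12 were fast 2A, 2 were slow and 0 were fast 2X. These cells held 41.6% of all Myh3 counts and 6.65% of all counts, came from 6 of the 8 libraries and had 91877 to 578234 counts each. In 11 of the 14, Myh7 gave 5% or more of the counts of the 5 Myh genes, which was so in 15 of the 171 cells. Tnnt1, the slow troponin T, was at 2348 to 8517 CPM in the 14 cells, compared with a median of 1978 CPM in the other 39 fast 2A cells. The median of all 51 fast 2A cells was also 2348 CPM, so some of the other fast 2A cells reached this range. Myh8 in the 14 cells was between 19.9 and 202 CPM.

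The cell with the most Myh3 for its size, a fast 2A cell, had 65 Myh3 counts in 193406 (336 CPM) and 15.4% Myh7. The next had 111 counts in 377619 (294 CPM) and 43.2% Myh7. Within fast 2A, cells with under 1% Myh7 had 40.6 CPM of Myh3 (25 cells, limits 35.7 to 46.0) and cells with 1% to 5% had 47.8 CPM (15 cells, limits 40.3 to 56.4), which overlap. Cells with 5% to 10% had 146 CPM (5 cells, limits 117 to 181) and cells with at least 10% had 200.4 CPM (6 cells, limits 182 to 220.03). Myh8 went the other way over these steps, at 207, 155, 66.3 and 47.9 CPM. Without the cells with at least 5% Myh7, the log2 ratio of Myh3 between fast 2A and fast 2X was 1.47.

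Along the Myh2 share of Myh1 and Myh2, the genes crossed. Where Myh2 made up 10% to 20% (47 cells), Myh8 was at 933 CPM and Myh3 at 13.4 CPM. Between 30% and 40% (28 cells) Myh8 was at 510 CPM (limits 492 to 528) and Myh3 at 21.5 CPM. Between 70% and 80% (21 cells) Myh8 was at 149 CPM and Myh3 at 49.0 CPM, and between 80% and 90% (14 cells) Myh8 was at 69.7 CPM and Myh3 at 122 CPM (limits 110 to 134). The lowest and highest steps rest on 1 and 2 cells. The steps of Myh3 between 50% and 80% (44.3, 42.0 and 49.0 CPM) did not differ beyond their limits.

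The Spearman correlation with the Myh2 share was −0.76 for Myh8 and 0.51 for Myh3. Within fast 2X it was −0.52 and 0.20, and within fast 2A −0.62 and 0.38. Between Myh8 and Myh3 it was −0.35 over all cells, 0.07 within fast 2X and −0.44 within fast 2A. Myh3 exceeded Myh8 in 15 cells, 13 of them fast 2A and 2 slow. The genes were thus not at their highest in the same fibres.

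**Figure D3:**
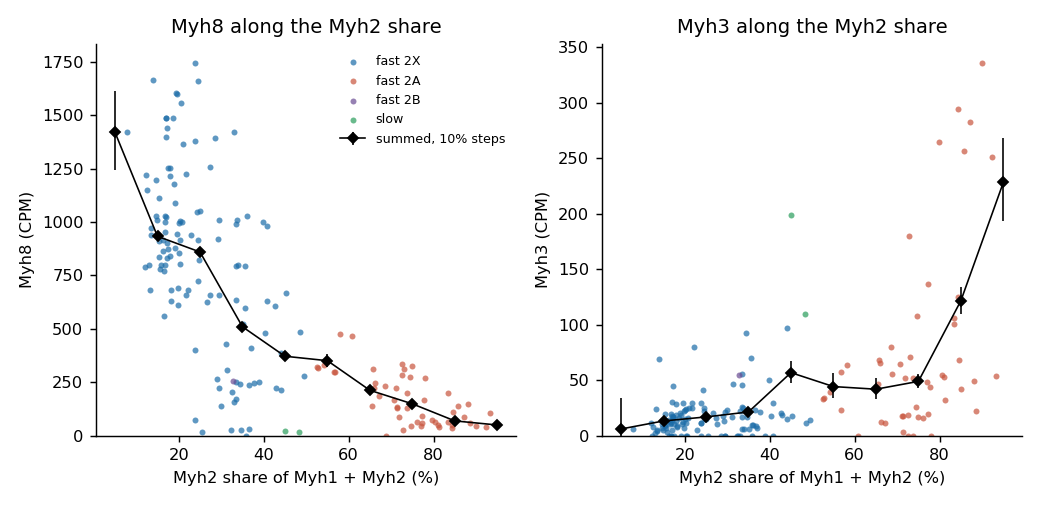
Myh8 (left) and Myh3 (right) in CPM against the Myh2 share of Myh1 and Myh2 for the 171 kept cells, coloured by fibre class; black diamonds are the levels summed over cells in steps of 10%, with exact 95% counting limits. Summed Myh8 was 933 CPM between 10% and 20% and 69.7 CPM between 80% and 90%, while Myh3 was 13.4 and 122 CPM.

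The class difference was found in each library. Over the 8 library indexes the log2 ratio of fast 2A over fast 2X ran from −2.80 to −2.03 for Myh8 and from 1.91 to 2.61 for Myh3. The library with the fewest fast 2A cells, n710, had 2 of them. Levels differed between lanes: summed Myh3 in fast 2A cells was 88.9 CPM on lane 1 and 61.3 CPM on lane 2, and in fast 2X cells it was 20.6 and 11.3 CPM. Myh8 was closer, at 160 and 156 CPM in fast 2A and 862 and 810.1 CPM in fast 2X. Myh8 per 100 Myh1 counts in fast 2X cells was lowest in library n708, at 5.20, and highest in n705, at 10.8. The part of library and lane in these levels was not tested.

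**Figure D4:**
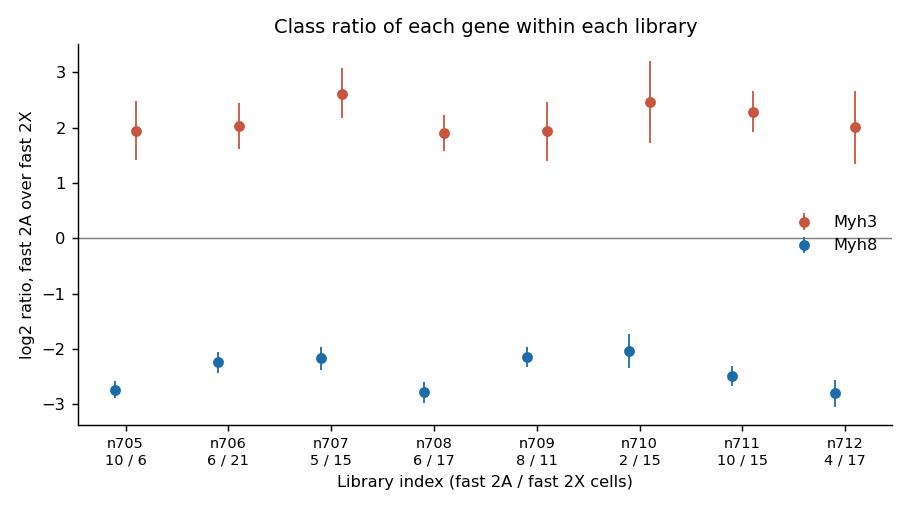
Log2 ratio of summed CPM in fast 2A over fast 2X cells for Myh3 and Myh8 within each of the 8 library indexes, with exact 95% counting limits and the number of cells of each class under the axis. Myh8 lay between −2.80 and −2.03 and Myh3 between 1.91 and 2.61.

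Across the 8740 other genes with at least 500 counts, those whose pattern over the 171 cells was most like that of Myh8, by Spearman correlation of CPM, were Pvalb, the calcium buffer parvalbumin (0.83), Atp2a1, the fast calcium pump (0.82), Mss51 (0.82), Actn3, the fast alpha-actinin (0.80), Mybpc2, fast myosin binding protein C (0.80), and Casq1, fast calsequestrin (0.79). Within fast 2X cells all 6 genes lay between 0.56 (Mybpc2) and 0.72 (Atp2a1). Within fast 2A cells Atp2a1 was at 0.70 but Actn3 at 0.19 and Casq1 at 0.18. At the other end were Lpl, lipoprotein lipase (−0.66), Ablim1 (−0.65), Homer2 (−0.63) and Col23a1 (−0.61).

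The genes most like Myh3 were Tnnt1, slow troponin T (0.63), Myl2, the slow regulatory light chain (0.58), Tnnc1, slow troponin C (0.57), Tnni1, slow troponin I (0.53), Map1a (0.52) and Ldhb, the heart-type lactate dehydrogenase subunit (0.48). Within fast 2A cells Myl2 was at 0.56 and Tnnt1 at 0.49, while Map1a was at 0.18. The most opposed were Xpr1 (−0.47), Mss51 (−0.47), Pgm1 (−0.42) and Ube2d1 (−0.42). The lower counts of Myh3 limit how large its correlations can be.

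Lists of genes were compared with these patterns by their counts. Of all other genes tested, 6.39% had a Spearman correlation of at least 0.3 with Myh8 and 1.64% of −0.3 or less, and with Myh3 the shares were 0.755% and 1.04%. Of 12 fast-fibre genes, all 12 reached 0.3 with Myh8 (median 0.62) and 4 were at −0.3 or less with Myh3 (median −0.26). These fast-fibre genes had 33708 to 668848 counts each, while the shares of all genes include genes from 500 counts, so the depths are unlike. Of 12 slow and oxidative genes, 9 were at −0.3 or less with Myh8 (median −0.38) and 8 at 0.3 or more with Myh3 (median 0.37). Between the classes, 0.789% of 8741 genes were at least 2-fold higher in fast 2A and 1.75% in fast 2X, with a median log2 ratio of −0.09. These were 69 and 153 genes, and with TMM factors, which shifted all log2 ratios by 0.11, they were 95 and 101. The slow list had 8 of 12 genes at least 2-fold higher in fast 2A, among them Tnnt1 (log2 ratio 3.51) and Tpm3, the slow tropomyosin (2.54). The fast list had 3 of 12 at least 2-fold higher in fast 2X, which were Mybpc2 (−2.13), Actn3 (−1.74) and Pvalb (−1.61).

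Among the sarcomeric genes of the family, Myh7 (0.46), Myh2 (0.47) and Myh4 (0.42) reached 0.3 with Myh3. Myh4 itself was higher in fast 2A (464 CPM) than in fast 2X (192 CPM) cells. Relative to Myh2 it was similar, at 5.24 Myh4 counts per 100 Myh2 counts in fast 2A (limits 5.10 to 5.39) and 5.70 in fast 2X (limits 5.57 to 5.83). Myh6, which neighbours Myh7 on chromosome 14, was at 0.28 with Myh3 and −0.29 with Myh8. Of the noncoding genes of the cluster, Myhas, which is antisense to Myh1, was at 0.53 with Myh8 and −0.35 with Myh3. 2310065F04Rik, between Myh3 and Myh2, was at 0.36 with Myh8 and −0.21 with Myh3. Counting used zUMIs with default settings per the methods, and its handling of strand was not tested, so reads of Myhas and Myh1 may not be told apart where they overlap.

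Other genes of immature or denervated muscle were measured beside Myh8 and Myh3, in numbers too small to be read against the shares of all genes above. Of 5 developmental contractile genes tested, 0 reached 0.3 in either direction with Myh8 or with Myh3. Tnnt2, cardiac and embryonic troponin T, was at −0.09 and 0.15, and Myl4, the embryonic light chain, was at −0.19 and −0.13. Of 9 denervation-responsive genes tested, 2 reached 0.3 with Myh8 and 0 with Myh3. These were Chrne (0.48) and Chrna1 (0.31), the epsilon and alpha subunits of the acetylcholine receptor, of which the epsilon subunit belongs to adult muscle. Chrng, the fetal gamma subunit, had 27 counts in all 171 cells and Myog, myogenin, had 229. Mymk and Mymx, which fuse myoblasts, had 22 and 1. Myod1, the myogenic factor typical of fast fibres, was at 0.48 with Myh8 and −0.26 with Myh3. The satellite cell gene Pax7 had 402 counts (7.74 CPM), and it was at 8.48 CPM in fast 2A and 6.79 CPM in fast 2X cells.

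Of 13 regulators of the myosin genes tested, 2 reached 0.3 with Myh8 and 0 with Myh3, compared with 6.39% and 0.755% of all other genes tested. The numbers are too small to be read against these shares. The 2 regulators were Tbx15 (0.48), a factor of glycolytic fibres, and Sox6 (0.34), which represses slow genes and was at −0.28 with Myh3. Mef2c was at 0.00 with Myh8 and 0.21 with Myh3. Of the genes of intrafusal fibres, which keep developmental myosins in the adult, Etv5 was at 0.04 with Myh8 and −0.01 with Myh3. Ntf3 was at −0.22 with Myh8 and −0.003 with Myh3. Egr3 had 61 counts, with 22 in fast 2X cells, 4 in fast 2A cells and the rest in the slow and fast 2B cells.

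**Figure D5:**
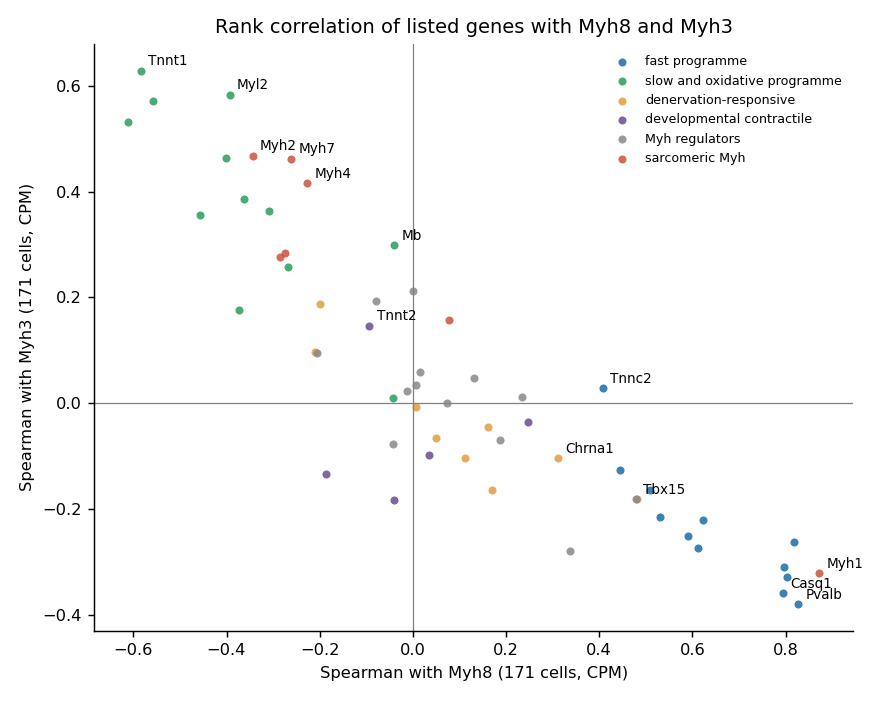
Spearman correlation of CPM with Myh8 (horizontal) and with Myh3 (vertical) over the 171 kept cells, for the listed genes with at least 500 counts; each point is a gene, coloured by list. Fast-fibre genes lie at the right (0.41 to 0.83 with Myh8) and slow and oxidative genes at the left (−0.61 to −0.04), while developmental and denervation genes lie between −0.21 and 0.48.

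Transcripts of other cell types were present at low levels. Summed over each list, endothelial markers (5 genes) were at 145 CPM in fast 2A and 158 CPM in fast 2X, smooth muscle markers (5) at 111 and 130.4 CPM, and fibroblast markers (4) at 46.0 and 44.1 CPM. Schwann cell markers (4) were at 13.7 and 23.9 CPM, immune markers (3) at 8.73 and 7.43 CPM and blood markers (2) at 7.81 and 19.8 CPM, and 0 of these genes were at 0 in both classes. Most of the smooth muscle sum was Smtn (95.4 and 94.5 CPM). Summed over cells, the other 4 smooth muscle markers were at least 2-fold higher in fast 2X. The log2 ratios of these sums were −1.28 for Acta2 and −1.25 for Myh11. They were −1.11 for Tagln (151 counts, limits −1.91 to −0.39) and −1.01 for Cnn1 (130 counts, limits −1.84 to −0.27). The cell medians in fast 2A and fast 2X were close, at 3.60 and 3.58 CPM for Acta2 and 4.84 and 5.17 CPM for Myh11. For Tagln and Cnn1 they were 0 in both classes, whereas for Myh8 they were 138 and 843 CPM. Markers with at least 500 counts were 3 endothelial, 3 smooth muscle, 2 fibroblast and 1 Schwann, and 0 of them reached 0.3 in either direction with Myh8 or Myh3. Of all other genes tested, 6.39% reached 0.3 and 1.64% reached −0.3 with Myh8, and 0.755% and 1.04% with Myh3. The markers are too few to be read against these shares. Mitochondrial share moved with both genes, with a Spearman correlation of −0.38 for Myh8 and 0.25 for Myh3 over the kept cells. Fast 2A and fast 2X cells had median counts of 206510 and 255726. The part of these measures in the class difference was not tested.

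In the 592 cells left out, both genes were lower than in the kept cells, as were Myh1 and Myh2, but not Myh4. Myh8 had 60.4 CPM (942 counts, limits 56.6 to 64.4) and Myh3 had 10.8 CPM (168 counts, limits 9.21 to 12.5), while Myh1 had 2688 CPM and Myh2 1521 CPM. Myh4 had 355 CPM (limits 346 to 365), compared with 267 CPM in the kept cells (limits 262 to 271). The higher Myh4 lay in the fragments left out, at 1194 CPM summed (90 cells, 3991 of the 5538 counts). Among these, 1 fragment held 1045 counts, and the median fragment was at 338 CPM. In the whole myofibers left out Myh4 was at 126 CPM (502 cells, limits 120 to 133), which was lower than in the kept cells. For Myh8 and Myh3, whole myofibers and fragments among the cells left out had nearly the same levels. Myh8 was at 60.8 CPM (limits 56.5 to 65.3) and 59.0 CPM (limits 51.0 to 67.8), and Myh3 at 10.9 CPM (limits 9.16 to 13.0) and 10.2 CPM (limits 7.05 to 14.2). These intervals overlap. Cells that failed by too few genes alone (107 cells, a median of 2247 counts) had 304 CPM of Myh8 (141 counts), and cells that failed by mitochondrial share alone (111 cells, a median of 55404 counts) had 58.3 CPM (461 counts).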

How the data were processed

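Single FDB myofibers of 1 mouse were profiled by mcSCRB-seq. The authors mapped reads to GRCm38 with spike-in sequences by STAR 2.5.4b and counted UMIs per gene with zUMIs and featureCounts. The authors deposited raw UMI counts, all whole and not normalized, in 1 table with cell descriptions that hold percentages. Because of those percentages the deposited table was checked under the unit of an expected count, although each value is the number of UMIs the authors counted. Cell totals were the sums of the gene rows, a median of 97.7% of the deposited totals without spike-ins. 0 columns of other samples were present.

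Counts were summed over cells of a class and scaled to CPM, with exact Poisson limits. Ratios had exact conditional binomial limits and shares had Clopper-Pearson limits (95%, counting error only). Spearman correlations across cells are descriptive. Scripts used Python 3.11.15, scipy 1.17.1 and, for TMM factors, edgeR 4.0.16, and were tested on simulated data. Genes were named as follows: Myh8 and Myh3, genes of fixed lists, and for each member the 6 most and 4 least rank-correlated genes with at least 500 counts. The members, lists and alternatives were chosen with earlier results of these data known. Lanes are technical and not biological replicates.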

Additional observations from a re-analysis of the deposited data

How the results depend on the processing

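The directions of Myh8 and Myh3 between the classes and along the Myh2 share did not reverse under any alternative run. A value was taken as moved when it changed by more than the standard deviation between the 2 lanes (for counts of genes, by over 1.5 times). The causes were not tested. Myh8 in kept cells was 614 CPM as a mean over cells, 709 CPM without mitochondrial genes in the total, 623 CPM with mt-Rnr1 and mt-Rnr2 left out of the mitochondrial share of the filter (234 cells), and 560.1 CPM with no filter but 100 Myh counts (376 cells). Its log2 ratio was −2.28 as a mean over cells, −2.29 with TMM factors, −2.35 with the altered mitochondrial share, −2.21 with no filter and −2.45 without cells near the class boundary. Its correlation with the Myh2 share was −0.62 with the altered mitochondrial share, −0.40 with no filter and −0.79 relative to Myh1 and Myh2. That of Myh3 was 0.34, 0.27 and, after thinning, 0.37. Without cells of at least 5% Myh7, a choice made after seeing the data, the log2 ratios were −2.14 and 1.47 and the correlations −0.73 and 0.42.

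Genes at least 2-fold higher in fast 2A and fast 2X numbered 3059 and 8855 with no gene minimum, and 32 and 58 at 2000 counts. TMM factors gave 95 and 101, compared with 69 and 153. With 1 lane left out in turn, the ranges were 649 to 683 CPM and 21.2 to 42.9 CPM (Myh8, Myh3), −2.43 to −2.38 and 2.11 to 2.43 (log2 ratios), −0.78 to −0.75 and 0.43 to 0.51 (correlations), and 54 to 54 and 84 to 155 genes, with 84 on lane 1 alone, where fewer genes (5460) reached 500 counts. Leaving out the 3 fragments, added after seeing the data, left the levels at 670 and 31.7 CPM. No paired analysis was possible because the numbered samples are lanes of 1 group, with no test. Comparing the classes within lanes 1 and 2 instead gave log2 ratios of −2.43 and −2.38 for Myh8 and 2.11 and 2.43 for Myh3. Myh3 counts per cell (median 4) limit what can be read from a single cell.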
